A study of Cynodon dactylon with 6 samples.

Results

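In leaves of Cynodon dactylon, the turf grass bermudagrass, 97 of 111743 unigenes surged after 2 h at 42 °C and had lost most of that gain, but not all of it, after 12 h. A unigene is a gene-level unit of a transcript assembly, and its ID gives the number of an assembly component and of a gene within it. Members were chosen by their measured levels in all libraries: a mean normalized count of at least 80 at 2 h, at least 6 times the control mean, with a 12 h mean of at least 2 times the control and at most 50% of the 2 h mean. Normalized counts are read counts divided by a size factor per library, the median ratio to the mean library, and 1 was added to each group mean. Every contrast between the groups was therefore used in the choice, and the levels and ratios of the members below are a description with no test.

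The study compared wild-type seedlings 10 days old, in 3 groups of 2 libraries each: controls labelled 0 h, heat for 2 h and heat for 12 h. The heat treatments were at 42 °C and leaves were sampled in every group. No unheated leaves of 2 h or 12 h were analysed here, so the duration of heat and the time of sampling cannot be told apart. Whether the 2 replicates of a group came from separate plants or pools is not stated in the labels, so errors and p-values measure only the spread between these libraries.

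When plant cells are heated, heat shock transcription factors are released from their inhibited state and switch on genes for chaperones. Chaperones are proteins that help other proteins to fold and keep unfolded ones from clumping. In many plants chaperone transcripts peak early and then decline while the heat goes on, and the levels that remain belong to the acclimated state. The files used here do not pair unigenes with gene names or sequences, so it is not known which members encode chaperones or any other protein, and members are described by level, time course, length and assembly component. No sequence of a member was used here. In whole leaves, fewer cells of a type and less RNA per cell cannot be told apart.

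The libraries held between 6313500 and 9326725 assigned reads. The members took 0.0934% and 0.0991% of the reads of the control libraries, 1.94% and 1.69% at 2 h, and 0.619% and 0.497% at 12 h. As a mean this was 0.0963% ± 0.00407 in the controls, 1.81% ± 0.178 at 2 h and 0.558% ± 0.0864 at 12 h (SD, n = 2). The 3 groups did not overlap. Without the member that held the most reads at 2 h, the other members took 0.0796%, 1.58% and 0.503%. The 10 members with the highest 2 h counts held 48.4% ± 0.833 of the members' reads in the controls, 57.0% ± 1.64 at 2 h and 50.8% ± 0.351 at 12 h (SD, n = 2). These 10 were ranked by the same 2 h counts, which favours a high share at 2 h.

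**Figure D1:**
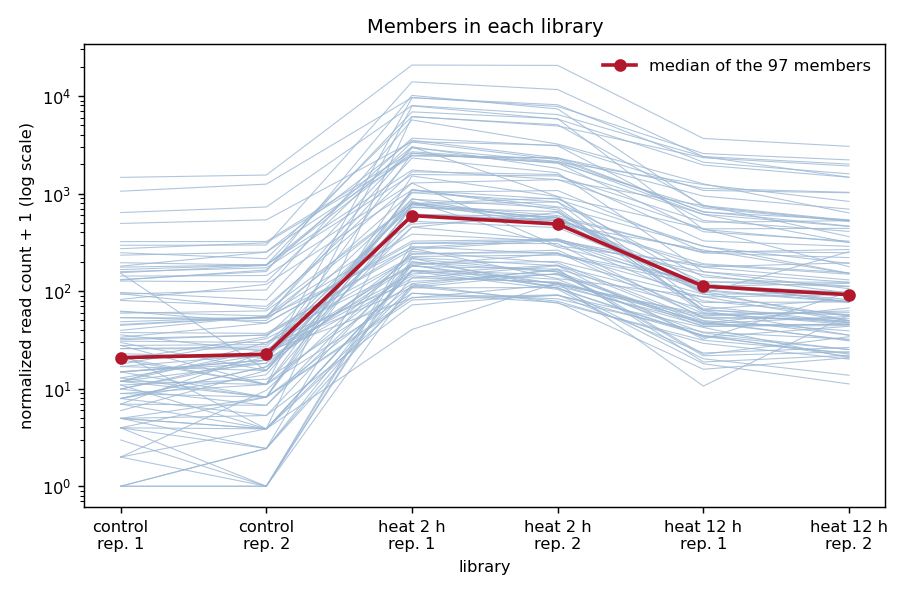
Normalized read count plus 1 (log scale) of each of the 97 members in each of the 6 libraries, 1 thin line per member, with the median over members as the thick line and points. The medians without the added 1 were 19.8 and 21.5 in the controls, 593 and 486 at 2 h, and 111 and 91.0 at 12 h.

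The levels of the members spanned more than 2 orders of magnitude in each group. In the controls the mean normalized count ran from 0 to 1507, with a median of 19.8. At 2 h it ran from 80.1 to 20697 with a median of 558, and at 12 h from 13.6 to 3361 with a median of 96.3. Per length, the median level was 3.69 FPKM (read counts divided by unigene length and by library size) in the controls, 68.4 FPKM at 2 h and 23.3 FPKM at 12 h. Ranked by FPKM among all unigenes, 0 members were among the first 500 in the controls, 23 at 2 h and 9 at 12 h. Of the 23, 5 were among the first 100 at 2 h, and 0 were at 12 h.

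The ratio of the 2 h mean to the control mean, with 1 added to each, ran from 6.08 to 1268 with a median of 20.3. It reached 20 in 50 members, 50 in 21 and 100 in 9. The ratio of the 12 h mean to the control mean ran from 2.03 to 172 with a median of 3.80. It stayed under 3 in 28 members and reached 10 in 17. The median log2 fold change from edgeR was 4.46 at 2 h and 1.95 at 12 h against control, and -2.06 from 2 h to 12 h. The standard errors of single members had medians of 0.29, 0.32 and 0.22 on the log2 scale. Over all 25828 tested unigenes the medians of the log2 fold change were 0.00, 0.12 and 0.05.

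All 97 members passed the filter on low counts, since each had a high level at 2 h. By the quasi-likelihood test of edgeR (adjusted p below 0.05 by Benjamini-Hochberg), 93 members were called higher at 2 h than in the controls, against 14.3% of all tested unigenes. At 12 h 89 were called higher than in the controls, against 27.6% of all, and 91 were called lower at 12 h than at 2 h, against 22.8% of all. The choice of members used these contrasts and nothing is read from the counts. The 2 h libraries lay above both controls in all 97 members, as they did in 32.7% of tested unigenes. The 12 h libraries lay above both controls in 95 members (44.3% of tested unigenes) and below both 2 h libraries in 96 members (33.3%).

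The member with the most reads at 2 h, and the first of 2 named as rises, was unigene c95125_g1. Its normalized count was 1465 and 1548 in the controls, 20783 and 20610 at 2 h, and 3673 and 3049 at 12 h. Its 2 h libraries agreed closely and stood 13.7 times above control by the group means, while the 12 h libraries were still above both controls at 2.23 times. The log2 fold change against control was 3.78 ± 0.13 at 2 h and 1.13 ± 0.12 at 12 h (edgeR estimate ± SE). It was long for a member, with an implied length of 2762 bases, so that by FPKM it ranked only 6 among the members at 2 h, at 847 ± 35.7 FPKM (SD, n = 2).

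By level per length the first member at 2 h was c88164_g1, the other unigene named as a rise. It stood at 294 and 296 normalized counts in the controls, 13963 and 11654 at 2 h, and 2388 and 1468 at 12 h. In FPKM it went from 51.8 ± 0.170 to 2355 ± 207 and then to 563 ± 167 (SD, n = 2), rank 39 of all unigenes at 2 h and rank 122 at 12 h. The log2 fold change against control was 5.44 ± 0.27 at 2 h and 2.68 ± 0.25 at 12 h (edgeR estimate ± SE). The groups did not overlap, but the replicates at 12 h lay further apart than those of the controls.

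The 2 members named as falls had the smallest ratio of the 12 h to the 2 h mean among the rest. The normalized count of c79259_g1 was 7.92 and 7.18 in the controls, 1516 and 929 at 2 h, and 68.9 and 47.1 at 12 h. Its log2 fold change was 7.30 ± 0.43 at 2 h against control and -4.43 ± 0.31 from 2 h to 12 h (edgeR estimate ± SE), and it still stood 6.90 times above control at 12 h. The normalized count of c82169_g1 was 15.8 and 14.4 in the controls, 1018 and 820 at 2 h, and 62.2 and 34.4 at 12 h. Its log2 fold change was 5.90 ± 0.30 at 2 h against control and -4.29 ± 0.24 from 2 h to 12 h (edgeR estimate ± SE), and it ended 3.06 times above control. Before heat these 2 stood at 0.685 ± 0.0495 and 4.81 ± 0.332 FPKM (SD, n = 2), below and above the members' median of 3.69 FPKM in the controls.

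The largest 2 h ratio of any member, 1268, belonged to the member ninth by reads at 2 h, which is singled out here after its values were seen. Its normalized count was 3.96 and 2.87 in the controls, 6113 and 5083 at 2 h, and 761 and 361 at 12 h. Another member, singled out in the same way, had the largest 12 h ratio, 172: 7.92 and 10.1 in the controls, 7921 and 5803 at 2 h, and 1959 and 1468 at 12 h. In both the controls were near the limit of detection while the 12 h libraries were far above it. They kept 9.97% and 24.9% of their 2 h gain.

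For 2 members no control read was found, and for 6 more there were 1 to 3 reads over both controls. Against a floor of 3 reads over the control group, the 2 without a control read were at least 90.1-fold and 53.8-fold higher at 2 h and at least 15.4-fold and 14.8-fold higher at 12 h. Among the 6, the count ratio to control at 2 h ran from 73.5 (95% interval 24.8 to 359) to 342 (60.9 to 13537), with exact binomial intervals that cover counting error only. The 16 members with a control mean under 5 normalized counts had 2 h means from 84.8 to 5598 and a median 12 h ratio of 18.8. The 31 members with a control mean of 50 or more had 2 h means from 332 to 20697 and a median 12 h ratio of 3.19. The requirement of at least 80 at 2 h forces a high 2 h ratio on members that start low, so this gap in ratios is partly set by the rule. The share of the gain kept, which does not divide by the control, had medians of 17.7% and 18.5% in these groups, and 21.4% in the 50 members between them. The rule's limits on the 12 h mean bound this share too, more narrowly where the 2 h ratio is small. These medians are therefore also partly set by the rule.

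The share of the 2 h gain that was kept at 12 h, the 12 h mean less the control mean divided by the 2 h mean less the control mean, was 19.5% at the median. It ran from 3.17% to 42.8%, with quartiles of 12.8% and 27.3%. In 15 members it was under 10%, and in 19 it was at least 30%. With a single 2 h and a single 12 h library in place of the means, the median over members ran from 15.2% to 22.9% over the 4 combinations. Within a member the 4 combinations spanned 10.8 percentage points at the median, so members near the middle of the range cannot be put in order. The 9 components that held 2 members each gave pairs whose kept shares lay from 1.52 to 16.9 points apart, with a median of 6.65 points. The SD of the kept share over all members was 10.0 points. An SD of single members is not a gap between 2 members, so likeness within components was not measured.

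**Figure D2:**
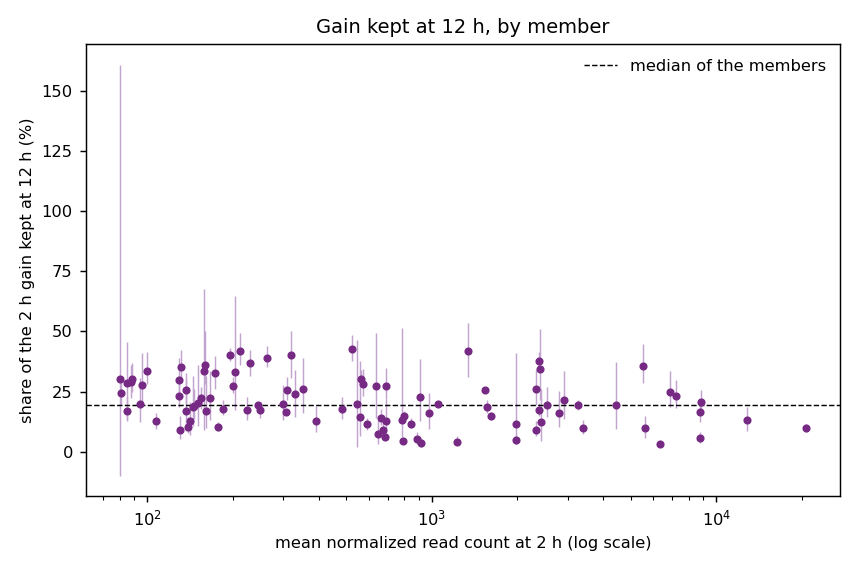
Share of the 2 h gain kept at 12 h (%) against the mean normalized read count at 2 h (log scale), 1 point per member (n = 97). Bars run from the lowest to the highest value over the 4 combinations of a 2 h with a 12 h library, and the dashed line is the median, 19.5%. All points lie between 3.17% and 42.8%, and 1 bar at the lowest level spans 171 points.

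The scale on which the libraries were compared moved the share kept. Scaled to library totals alone, the median share kept by the same members was 31.7%. On the authors' FPKM values, which are also scaled to totals, the 12 h mean was 37.8% of the 2 h mean at the median, against 24.8% in normalized counts with 1 added, and in 29 members it was more than 50%. The median FPKM quotient against control, over the 95 members above 0 FPKM in the controls, was 21.0 at 2 h and 5.85 at 12 h. A larger 12 h level on this scale goes with the size factors used here, which were 1.35 and 1.57 for the 12 h libraries against 0.786 and 0.862 for the 2 h libraries.

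Members were bounded on all sides by unigenes that missed by little. The lowest 2 h mean inside the limit of 80 was 81.1 and the highest outside was 79.99. For the 2 h ratio the values nearest to the limit of 6 were 6.08 inside and 5.91 outside, and for the 12 h ratio nearest to 2 they were 2.03 and 1.99. For the 2 h mean over the 12 h mean they were 2.03 inside and 1.98 outside. Applied to the 3 libraries numbered 1 alone, the rule chose 106 unigenes, of which 84 were members, and applied to those numbered 2 alone it chose 83, of which 75 were members. Both chose 63, all of them members. When 1 library was left out at a time, 84 to 93 of the 97 members were chosen again.

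Of the 191 unigenes with the same surge at 2 h (at least 80, and at least 6 times control), 97 were members, 41 had a 12 h mean under 2 times the control, and 53 had a 12 h mean above 50% of the 2 h mean. The median 2 h ratio was 20.3 in the members, 8.62 in the 41 that returned and 7.79 in the 53 that held their level. The gap between the 2 limits at 12 h widens with the 2 h ratio, so the rule itself places strong risers among the members. Before heat the members were the lowest of the 3 sets per length, at a median of 3.69 FPKM against 12.6 FPKM in the 41 and 5.03 FPKM in the 53. All these values were used in the choice and are not tested.

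**Figure D3:**
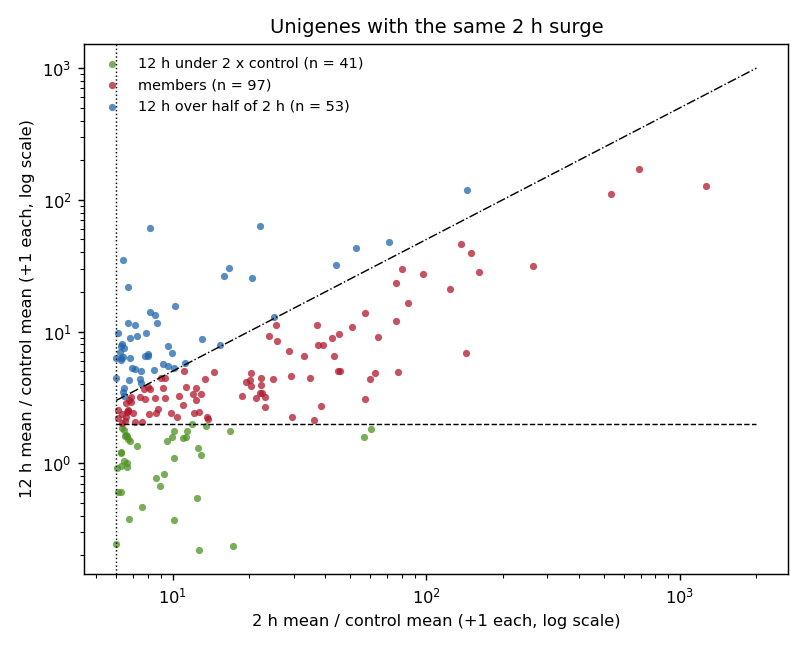
Ratio of the 12 h to the control mean against the ratio of the 2 h to the control mean (1 added to each mean, both axes log scale) for the 191 unigenes with the same surge at 2 h, coloured by set. The dotted line marks a 2 h ratio of 6, the dashed line a 12 h ratio of 2 and the dash-dotted line a 12 h mean of 50% of the 2 h mean; the 97 members lie between the last 2 lines.

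The difference between the replicates of a group was not used by the rule, which took group means. Replicate 1 was above replicate 2 in 70 of the 97 members at 2 h and in 72 at 12 h, or 72.2% and 74.2%, beside 52.1% and 55.2% of all tested unigenes. It was above at both times in 59 members (60.8%), beside 33.2% of all tested unigenes. In the controls replicate 1 was above in 40 members (41.2%), beside 51.5% of all. The differences were small in most members: the median log2 ratio of replicate 1 to replicate 2 was 0.26 at 2 h and 0.35 at 12 h, and replicates differed by at least 2-fold in 6 members at 2 h and 6 at 12 h. Across the 97 members the log2 ratios at the 2 times, of median-of-ratios normalized counts with 1 added, correlated at Pearson r = 0.63, against 0.27 across all tested unigenes. The tested unigenes were not matched to the members in level. Only 11328 of the 25828 reached a mean of 80 normalized counts at 2 h, as all members did. All members share the same 4 libraries, so these values describe the libraries and are not evidence from independent units.

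The 41 unigenes that returned leaned the same way as the members, with replicate 1 above in 78.0% at 2 h and 80.5% at 12 h. The 53 that held their level leaned the other way, with replicate 1 above in 39.6% and 37.7% and median log2 ratios of -0.65 and -0.40. This difference between the sets was not tested.

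**Figure D4:**
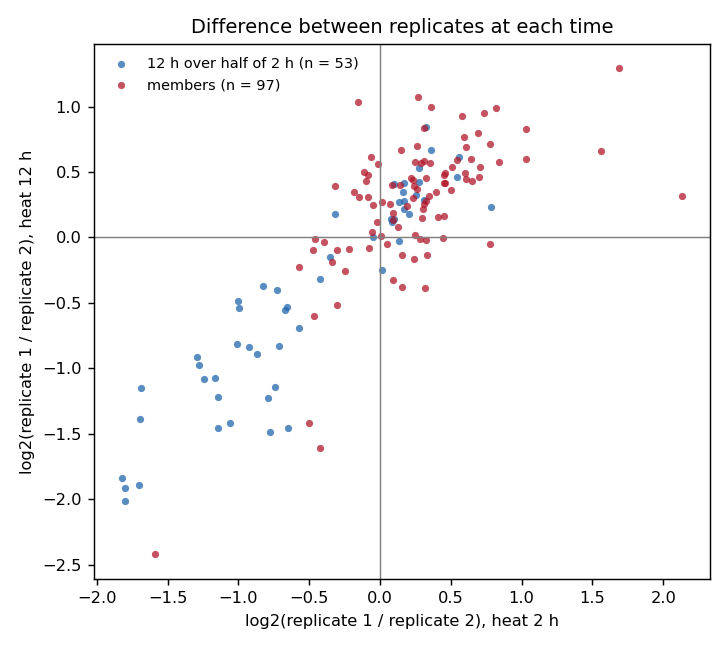
Log2 ratio of replicate 1 to replicate 2 (normalized counts with 1 added) at 12 h against the same at 2 h, 1 point per unigene, for the 97 members and the 53 unigenes that held their level at 12 h. Most members lie above 0 on both axes (59 of 97), while many of the 53 lie below 0 on both.

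In 2 members the groups overlapped, and in both the replicates of a group disagreed. The member fiftieth by reads at 2 h had 152 and 14.4 normalized counts in the controls, 451 and 639 at 2 h, and 94.1 and 253 at 12 h. The member with the lowest 2 h count had 21.8 and 2.87 in the controls, 39.5 and 121 at 2 h, and 9.63 and 56.0 at 12 h. In each of them control replicate 1 was above a 12 h library, and replicate 2 was the lower of the controls but the higher of both heated pairs. They were picked out for this overlap after their values were seen.

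The members had a lower median length than the tested unigenes that shared their floor of 80 normalized counts at 2 h, a group not matched to them in level. The length by which the authors' FPKM were divided, implied by count, FPKM and library total, had a median of 794 bases in the members (quartiles 508 and 1395). It was 1121 bases over all tested unigenes with a value and 1475 bases over the 11328 with a mean of at least 80 normalized counts at 2 h. Of the members 22.7% were under 500 bases, beside 5.91% of those 11328, and 58.8% were under 1000 bases, beside 26.6%. The unigenes that returned and those that held their level had medians of 1009 and 958 bases. The implied lengths of some members fell to 53.4 bases, so the divisor may be less than the full unigene, and FPKM of the shortest members are uncertain for that reason.

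The members came from 88 assembly components, of which 9 held 2 members each. In all, 50.5% of the members lay in components with more than 1 unigene, beside 43.5% of tested unigenes and 37.4% of those with at least 80 normalized counts at 2 h. Within these 9 pairs the 2 h levels in reads differed by a median of 3.71 times, and the 2 h ratios by a median of 1.76 times. One pair stood apart, singled out after its values were seen: 1 unigene of component c90586 went from 13.9 and 17.2 normalized counts in the controls to 9602 and 8144 at 2 h, and 2095 and 1593 at 12 h. The other went from 271 and 312 to 2468 and 2312, and then to 1130 and 1030. The first was far lower in the controls and higher at both heated times, so their 2 h ratios, 536 and 8.17, differed by 65.6 times.

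The same components held 57 unigenes that were not members, and their levels were not used by the rule beyond the fact that they did not meet it. Of these companions 36, in 26 components, passed the filter on low counts and were tested with all other unigenes. At 2 h 23 of the 36 (63.9%) were higher than in the controls and 1 was lower, where 14.3% of all tested unigenes were higher and 14.4% were lower (quasi-likelihood test of edgeR, adjusted p below 0.05 by Benjamini-Hochberg). Of the 36, 7 passed the filter only through the 2 h libraries, and all 7 were among the 23, so the count is partly set by the filter. Of the 29 that also met its cutoff in at least 2 of the control and 12 h libraries, 16 were called higher (55.2%), beside 14.1% of all tested unigenes that did so. With no filter 23 of 54 companions with any read were called higher (42.6%), beside 4.64% of all. At 12 h 15 were higher and 3 were lower than in the controls, beside 27.6% and 24.4% of all tested. From 2 h to 12 h 18 (50%) fell and 5 rose, beside 22.8% and 22.9% of all. The 7 that passed the filter only through the 2 h libraries were all among the 18, so this count is also partly set by the filter. With no filter 17 of 54 fell (31.5%) and 5 rose (9.26%), beside 6.15% and 7.49% of all. Unigenes of 1 component may share reads with a member, and the part of shared reads in these counts was not tested.

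Of the 23 companions that were higher at 2 h, 16 (69.6%) were also lower at 12 h than at 2 h, beside 46.6% of the 3706 tested unigenes called higher at 2 h. Of the 16, 6 (37.5%) were still higher at 12 h than in the controls, beside 24.5% of the 1728 unigenes with both calls. The 7 companions that passed the filter only through the 2 h libraries were all among the 16, and some of them were among the 6. Both shares are therefore partly set by the filter. These shares are descriptions, and the differences between them were not tested. Without control replicate 1, 15 of 38 tested companions were called higher at 2 h, beside 7.50% of all tested unigenes. Scaled to library totals alone, 25 were higher at 12 h than in the controls, beside 52.5% of all, and from 2 h to 12 h 11 fell and 10 rose, beside 11.7% and 48.2% of all.

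The companions of the 2 named rises are given singly. The other unigene of component c95125 had 249 and 257 normalized counts in the controls, 3504 and 3402 at 2 h, and 529 and 445 at 12 h. Its log2 fold change of 3.77 ± 0.13 at 2 h (SE; edgeR adjusted p = 5.01e-09) was close to the 3.78 of the member, and it missed the rule only with a 12 h ratio of 1.92. Component c88164 held 2 companions. One had 29.7 and 34.5 normalized counts in the controls, 211 and 234 at 2 h, and 14.1 and 8.91 at 12 h, so that it rose by 2.80 ± 0.23 on the log2 scale at 2 h (SE; edgeR adjusted p = 3.12e-06). It then fell below control, with a log2 fold change of -1.51 ± 0.31 at 12 h (edgeR adjusted p = 0.00136), where the member was above control. The other had 119 and 122 in the controls, 193 and 153 at 2 h, and 155 and 124 at 12 h. Its log2 fold change at 2 h was 0.52 ± 0.18 (SE; edgeR adjusted p = 0.0489), beside 5.44 ± 0.27 in the member, and at 12 h it was 0.18 ± 0.18 (edgeR adjusted p = 0.413).

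The single companion that fell at 2 h, singled out after its values were seen, had 543 and 570 normalized counts in the controls, 433 and 407 at 2 h, and 308 and 262 at 12 h. Against control it changed by -0.41 ± 0.12 on the log2 scale at 2 h (SE), with an edgeR adjusted p of 0.023, and by -0.99 ± 0.12 at 12 h, with an edgeR adjusted p of 2.07e-05. The call at 2 h was lost when any of the control or 2 h libraries was left out. In 9 of the 26 components no companion was called higher at 2 h.

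**Figure D5:**
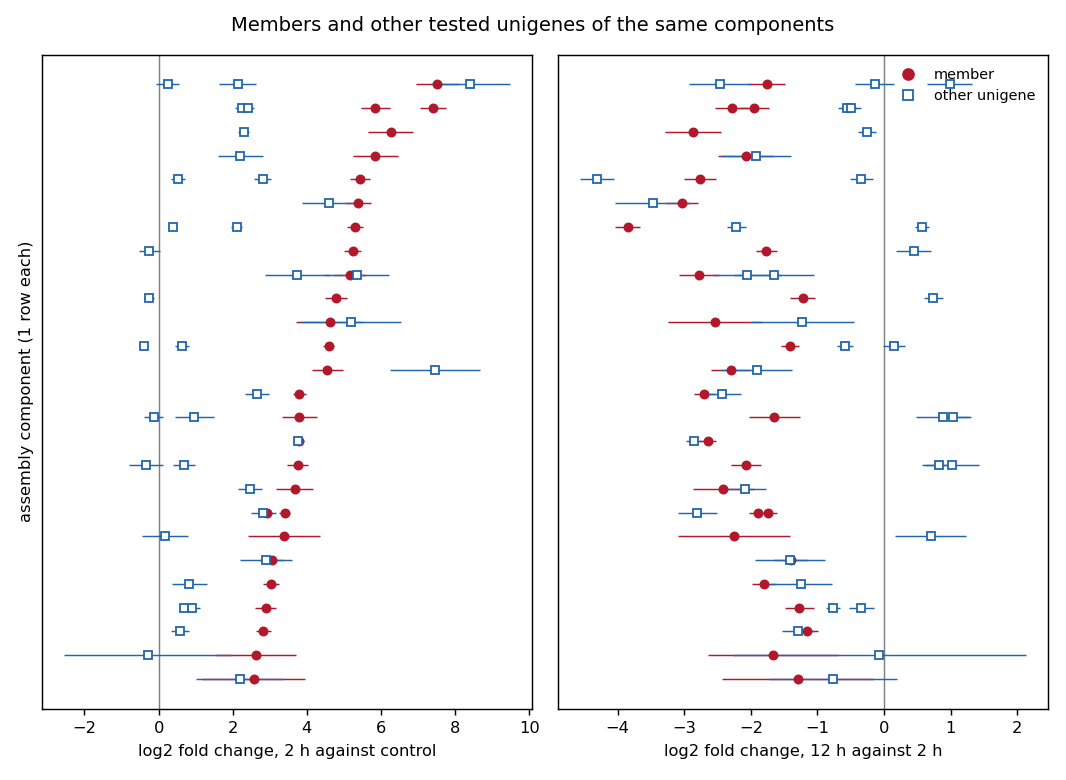
Log2 fold change from edgeR at 2 h against control (left) and at 12 h against 2 h (right) for members (filled circles) and the 36 tested companions (open squares) of 26 components, 1 row per component, ordered by the member's change at 2 h; bars are standard errors. At 2 h 30 of the 36 companions lie above 0, the highest of them against a control group at 0 reads, and at 12 h against 2 h 10 lie above 0. Of the 36, 7 passed the filter only through the 2 h libraries. Over all tested unigenes the median log2 fold change was 0.0014 at 2 h against control and 0.051 at 12 h against 2 h.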

How the data were processed

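Leaf RNA of 6 samples, 2 per group, was sequenced. The authors deposited estimated counts per unigene, not scaled between libraries, and FPKM values; both tables list the same unigenes in different order and were joined by ID. DESeq 1.18.0, HTSeq 0.6.1, TopHat2 2.0.12 and Bowtie2 2.2.3 are listed in the submitters' processing notes without their roles; the build is not given in the sources used here. All columns matched a sample by its description.

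Size factors came from 18038 unigenes with at least 10 reads in all 6 libraries. For tests, counts were rounded, filtered with filterByExpr (minimum count 10, minimum total 15; 25828 kept), scaled with TMM (trimmed mean of M-values) and fitted with edgeR 4.0.16 in R 4.3.3 (robust quasi-likelihood, 1 mean per group, 3 residual degrees of freedom, Benjamini-Hochberg over all tested unigenes, threshold 0.05). Standard errors are the fold change over the square root of F. Implied lengths used libraries with at least 20 reads. DESeq2 1.42.0 was an alternative. The test planned for counts was used for rounded estimated counts.

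Without names, 4 unigenes were named: the 2 members highest at 2 h, and the 2 others with the lowest ratio of 12 h to 2 h. The members, the lists and the comparisons were chosen with earlier results of these data known.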

Additional observations from a re-analysis of the deposited data

How the results depend on the processing

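The rule chose from 83 unigenes on the libraries numbered 2 alone to 109 without heat 2 h replicate 1, and 63 where both replicate numbers had to choose a unigene separately. Library totals alone chose 90, of which 71 were members. With totals alone the median share of the gain kept was 31.7%, the median log2 fold changes of the members at 12 h were 2.56 against control and -1.46 against 2 h, and companions called at 12 h were 25 higher against control, and 10 higher and 11 lower against 2 h; the trimmed mean sets the 12 h libraries lower. Of all tested unigenes, totals alone called 52.5% higher at 12 h than control, and 48.2% higher and 11.7% lower than at 2 h. DESeq2 called 3 companions higher at 12 h than at 2 h, in place of 5, beside 14.2% of all in place of 22.9%. It called 0 lower at 2 h than control, in place of 1, beside 9.87% of all in place of 14.4%. The cause was not tested. Without its most abundant member the set held 0.0796% of the control reads, 1.58% at 2 h and 0.503% at 12 h.

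With 1 library left out at a time, the members numbered 89 to 109, the median share kept ran from 16.4% to 21.3%, and the median log2 fold changes from 4.23 to 4.498 at 2 h and from 1.84 to 2.01 at 12 h against control, and from -2.23 to -1.86 between the times. Companions called at 2 h ran from 15 to 23 higher and from 0 to 1 lower. At 12 h they ran from 11 to 15 higher and from 2 to 3 lower against control, and from 3 to 5 higher and 15 to 18 lower against 2 h. The members, chosen again each time, held 0.0753% to 0.105% of the control reads, 1.58% to 1.99% at 2 h and 0.467% to 0.618% at 12 h. A group left with 1 library was assumed to vary like the others. The number of members with replicate 1 above replicate 2 was also counted under TMM and library totals, chosen after seeing the data. In place of 70 at 2 h it was 68 under TMM and 62 under library totals. In place of 72 at 12 h it was 72 and 70. The share of all tested unigenes on these scales is not given here. The requirement that the filter be met outside the 2 h libraries was also chosen after seeing the data.

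Replicate numbers are shared by the groups, but no label says that they mark a shared plant or day; the differences between replicates correlated at r = 0.01 and 0.04 between the controls and the heated groups and at 0.29 between the heated groups, across tested unigenes, on log2 CPM with TMM scaling and a prior count of 2. With the number as a replicate block, the medians were 4.39, 1.94 and -2.03. Called higher at 2 h were 26 of 36 companions in place of 23, beside 17.4% of all tested unigenes in place of 14.3%. The signs of the log2 fold changes of the 4 named members did not turn under the edgeR alternatives that kept the filter. The rule had fixed these signs in the choice, so nothing is read from this. DESeq2 and the fit without a filter were not compared for these 4. Members with few control reads are limited by depth, since 3 reads over the group set their floor.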
